A study of Homo sapiens with 42 samples.

Results

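WDR1 and 9 further genes whose proteins take actin filaments apart or bind the subunits released were followed by RNA sequencing in 2 human cell lines with reduced or blocked RNA polymerase III (Pol III), the enzyme that makes tRNAs and other short noncoding RNAs. The genes, WDR1, CFL1, CFL2, DSTN, CAP1, CAP2, CORO1B, CORO1C, TWF1 and PFN1, are 10 of the 34318 to which reads could be assigned. They were chosen by symbol, WDR1 because it was higher with each of 3 POLR3GL siRNAs, so its values in that contrast are given as a description without a test. The choice set no threshold, and all 10 genes passed the filter on low counts in each of 14 comparisons. HEK293T, a human embryonic kidney line, was treated for 48 h in 4 experiments. The first set a POLR3G antisense oligonucleotide (ASO) beside a scramble ASO, and the second a POLR3G siRNA beside a control siRNA, all at 200 nM. The third used 25 nM of either the control siRNA or 1 of 3 POLR3GL siRNAs (siE4, siE6, siE8), and the fourth overexpressed MAF1 or, as its control, eGFP. POLR3G and POLR3GL encode alternative forms of a Pol III subunit, and MAF1 is a repressor of Pol III. ASOs and siRNAs were transfected with one lipid reagent and the overexpression constructs with another, and no untransfected HEK293T group was analysed here. THP-1, a monocytic leukaemia line, received DMSO, ML-60218 (25 uM for 4 h), which inhibits Pol III, cycloheximide (CHX, 10 ug/ml for 4.5 h), which blocks protein synthesis, or both. Each of the 14 groups had 3 libraries. The labels do not say that these came from separate cultures, so p-values rest on a spread between libraries that could be technical only.

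Actin filaments turn over as cofilin family proteins bind older stretches of the filament and sever them. WDR1, also called AIP1, acts with cofilin to break filaments down, coronins and cyclase-associated proteins (CAPs) speed the process, twinfilin binds monomers and filament ends, and profilin recharges and returns monomers for new growth. Several genes of the actin cytoskeleton are known targets of the transcription factor SRF, which binds the CArG box and is itself regulated by the pool of free actin monomers.

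Among these genes WDR1 had the largest change from control with each POLR3GL siRNA, the contrast that chose it. With the POLR3G siRNA it was largest too, at log2 1.14 beside -1.09 for CAP2. With the POLR3G ASO CAP2 changed most (log2 -0.53, against -0.11 for WDR1). CORO1C and CORO1B were lower than the control with siE4, while CORO1C was higher with siE6 and siE8. CAP2 was lower with each POLR3GL siRNA, least with siE4 (log2 -0.26 with siE4, -0.97 with siE6 and -0.49 with siE8). Promoter sequences are shown for WDR1, CORO1C and CAP2. Each is the 250 bases before the start site from RefSeq (GRCh38.p14), 5′ to 3′ on the strand of the gene, with GGGCGG or its reverse complement CCGCCC, the core of the GC box, in capitals.
WDR1 promoter: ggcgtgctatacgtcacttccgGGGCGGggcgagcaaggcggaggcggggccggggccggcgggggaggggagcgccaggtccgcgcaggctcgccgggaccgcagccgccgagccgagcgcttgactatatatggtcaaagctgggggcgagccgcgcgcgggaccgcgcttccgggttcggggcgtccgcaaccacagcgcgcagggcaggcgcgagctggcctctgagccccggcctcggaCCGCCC
CORO1C promoter: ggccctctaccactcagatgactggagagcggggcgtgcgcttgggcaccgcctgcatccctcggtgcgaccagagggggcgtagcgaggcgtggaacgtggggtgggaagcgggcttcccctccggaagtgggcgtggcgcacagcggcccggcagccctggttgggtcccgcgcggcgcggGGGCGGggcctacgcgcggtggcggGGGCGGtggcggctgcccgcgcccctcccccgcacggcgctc
CAP2 promoter: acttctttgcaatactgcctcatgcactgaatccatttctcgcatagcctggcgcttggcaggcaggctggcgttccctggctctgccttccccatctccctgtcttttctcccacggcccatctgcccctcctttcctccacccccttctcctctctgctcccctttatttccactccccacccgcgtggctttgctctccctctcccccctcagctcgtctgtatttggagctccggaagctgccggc
The WDR1 stretch is chr4:10116800-10117049 (minus strand), that of CORO1C chr12:108731519-108731768 (minus strand, the first listed of 3 start sites) and that of CAP2 chr6:17393345-17393594 (plus strand). RefSeq gave 15 promoters for the 10 genes, among 35116 promoters of 300 bases (250 before and 50 after the start) searched on both strands. A gene counts here if any of its promoters holds the motif, so counts of genes and shares of promoters differ in unit. GGGCGG was found for 9 of the 10 genes and in 45% of all promoters. CAP2 is the gene without it in this window. CCGGAAG, an ETS-type motif, was found for WDR1, CFL1, CAP1, CAP2, CORO1B, CORO1C and TWF1, and in 10.3% of all promoters. WDR1 held it at 3 places, the last of them after the start site and so not in the stretch shown. A CArG box in its exact consensus was found in none of the 10 genes and in 1.29% of all promoters. Allowing 1 mismatch, it was found for WDR1 (CTATATATGG, starting 124 bases before the start site), CFL2 and CAP1, and in 18.9% of all promoters. These matches describe letters in the window and are not evidence of binding.

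Libraries held 32705684 to 52568088 estimated reads. CPM, read counts scaled to the size of the library, are compared within an experiment, and TPM, which also allow for transcript length, across experiments and between genes. Fold changes are log2 ± SE, and a gene is called at an edgeR adjusted p under 0.05 over all genes tested. POLR3G was lower with the ASO (24.1 ± 3.79 to 8.57 ± 1.95 CPM, SD, n = 3) and with its siRNA (34.4 ± 6.13 to 14.5 ± 2.46 CPM). In the POLR3G siRNA libraries MAF1 was also lower, 49.96 ± 1.30 against 9.84 ± 0.675 CPM. POLR3GL was lower with both agents against POLR3G, by 1.36-fold with the ASO (edgeR adjusted p = 1.86e-04) and 1.49-fold with the siRNA (7.91e-07). POLR3GL was 34.1 ± 2.00 CPM with the 25 nM control siRNA and 2.61 to 3.36 CPM with siE4, siE6 and siE8, in which POLR3G was lower by 1.48 to 1.91-fold as well. MAF1 rose from 41.4 ± 1.16 to 3090 ± 217 CPM on overexpression. Of the markers listed for each line, 9 of 9 for HEK293T and 11 of 11 for THP-1 exceeded 1 TPM in their own line, and 2 of 9 and 2 of 11 in the other. In comparisons of 2 groups the CPM scale sets the median change of all genes near 0, which TPM does not. The median log2 TPM ratio ran from -0.22 (siE4) to 0.33 (CHX). Of 76 calls among the 10 genes in comparisons of 2 groups, 12 had a raw TPM ratio of the opposite sign and 0 had one after that median was subtracted, so changes are given relative to the other genes.

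WDR1 (ENSG00000071127, chromosome 4, 10074339 to 10116949, minus strand, GRCh38) was 3.4 to 3.6-fold higher with each POLR3GL siRNA than with the 25 nM control siRNA, and its level in both control siRNA groups was the lowest of the HEK293T groups. With the control siRNA WDR1 was at 42.2, 45.6 and 44.0 CPM. It reached 165, 156 and 157 CPM with siE4, 149.6, 156 and 147 CPM with siE6, and 154, 158 and 159 CPM with siE8. All 9 siRNA libraries lay far above the 3 controls and close to each other. The values correspond to 3.62-fold (log2 1.86 ± 0.04), 3.43-fold (1.78 ± 0.04) and 3.57-fold (1.84 ± 0.04), and carry no test because they chose the gene. Differences between the 3 siRNAs were not set by the choice, but they come from libraries that the choice used and do not stand apart from it. The siE4 and siE8 levels differed by log2 0.02 (95% interval -0.06 to 0.11), those of siE6 and siE8 by -0.06 (-0.14 to 0.03) and those of siE4 and siE6 by 0.08 (-0.01 to 0.16). None of these passed edgeR's test (adjusted p = 0.659, 0.213 and 0.0933), which does not show that the siRNAs acted alike. Among 15573 genes, 63%, 64.2% and 64.8% were called in the same contrasts.

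These folds are taken against control siRNA libraries whose own WDR1 level was low. The 6 control siRNA libraries, from both doses, were at 19.4 to 21.9 TPM, with a median of 20.3. The other 24 HEK293T libraries were at 42.4 to 78.5 TPM, with a median of 57.4, so the ranges did not overlap. In order of mean level, WDR1 was at 20.1 ± 0.642 (25 nM control siRNA), 20.7 ± 1.12 (200 nM control siRNA), 44.3 ± 1.73 (scramble ASO), 46.3 ± 1.65 (POLR3G siRNA) and 47.5 ± 2.74 TPM (POLR3G ASO). It continued at 56.9 ± 2.90 (MAF1), 59.2 ± 2.15 (eGFP), 62.7 ± 4.67 (siE6), 65.5 ± 3.72 (siE4) and 75.8 ± 4.28 TPM (siE8), SD of 3 libraries each. In this order only the steps from the control siRNA groups to the scramble ASO, from the POLR3G ASO to MAF1, and from siE4 to siE8 separated neighbours without overlap of their libraries. The last step is one of the raw TPM scale. There the WDR1 log2 ratio of siE4 to siE8 was -0.211, and -0.0048 after that of the median gene was subtracted. The scramble ASO group was 2.14-fold and the eGFP group 2.86-fold above the 200 nM control siRNA, though none of these 3 received an agent against Pol III. An effect of the control siRNA on WDR1 and an effect of the POLR3GL siRNAs cannot be told apart with these groups.

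**Figure D1:**
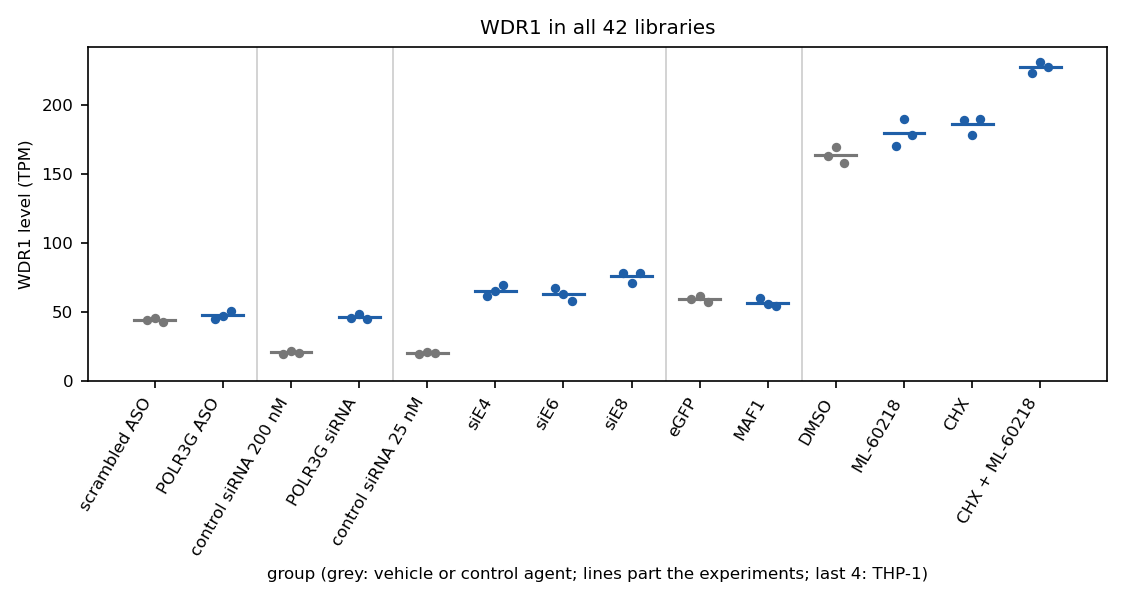
WDR1 level in TPM (vertical axis, from 0) in each of the 42 libraries by group (horizontal axis). Points are libraries, bars are group means, grey marks control or vehicle groups and vertical lines part the experiments; the 6 control siRNA libraries sit at 19.4 to 21.9 TPM, below the other 24 HEK293T libraries.

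WDR1 was also higher with the POLR3G siRNA than with its own 200 nM control siRNA. WDR1 was at 40.6, 41.9 and 43.2 CPM in the control and 93.6, 92.9 and 90.7 CPM with the POLR3G siRNA. Its rise was 2.2-fold (log2 1.14 ± 0.03, edgeR adjusted p = 3.26e-09), against the same low control level. With the POLR3G ASO, whose scramble control was at 104, 105 and 102 CPM, WDR1 was at 96.1, 93.3 and 98.8 CPM. The groups did not overlap, and the change of log2 -0.11 ± 0.03 was called (edgeR adjusted p = 0.00791), but not with an offset for effective transcript length (0.195) or on reads of protein-coding transcripts alone (0.279), and on the raw TPM scale the ASO group was the higher. Tested in 1 fit, the ASO effect minus the siRNA effect was log2 -1.28 ± 0.04 for WDR1 (edgeR adjusted p = 2.80e-11). Of the 10 genes, 1 (CAP2) had the higher value with the ASO and 8 the lower, where 66.8% of 17489 genes differed, 33.8% higher and 33% lower. The median of all genes for this difference was log2 0.0769. The agents, their controls and the starting level differ together here. With MAF1 overexpression WDR1 was at log2 -0.06 ± 0.04 (adjusted p = 0.603), 121, 123 and 116 CPM against 125, 129.7 and 120.2 CPM with eGFP.

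Of the 10 genes, 8 rose and 2 fell with the POLR3G siRNA, where 74.9% of 15423 genes were called, 36.8% higher and 38.1% lower. With the POLR3G ASO 1 rose and 7 fell, where 68.5% of 17098 genes were called, 34.4% higher and 34.1% lower. Of these 7, WDR1, DSTN and CAP1 had the higher raw TPM mean with the ASO. In the contrast that the choice used, siE4 gave 4 higher and 3 lower (26.2% and 28.7% of all genes, 54.9% in all), siE6 8 and 1 (31.2% and 31.8%, 63% in all), and siE8 4 and 1 (29.1% and 28.6%, 57.7% in all), and nothing is read from those counts. The 3 comparisons share their control libraries. MAF1 overexpression gave 0 calls among the 10 genes with edgeR and 0 with DESeq2, with 1 gene, PFN1, at an unadjusted p under 0.05. Over all genes edgeR called 6 of 15543 (0.0386%; 0.0322% higher, 0.00643% lower) and DESeq2 32. The median log2 change of the 10 genes was 0.29 with the POLR3G siRNA (-0.02 for all genes) and -0.10 with the ASO (-0.0033 for all genes).

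**Figure D2:**
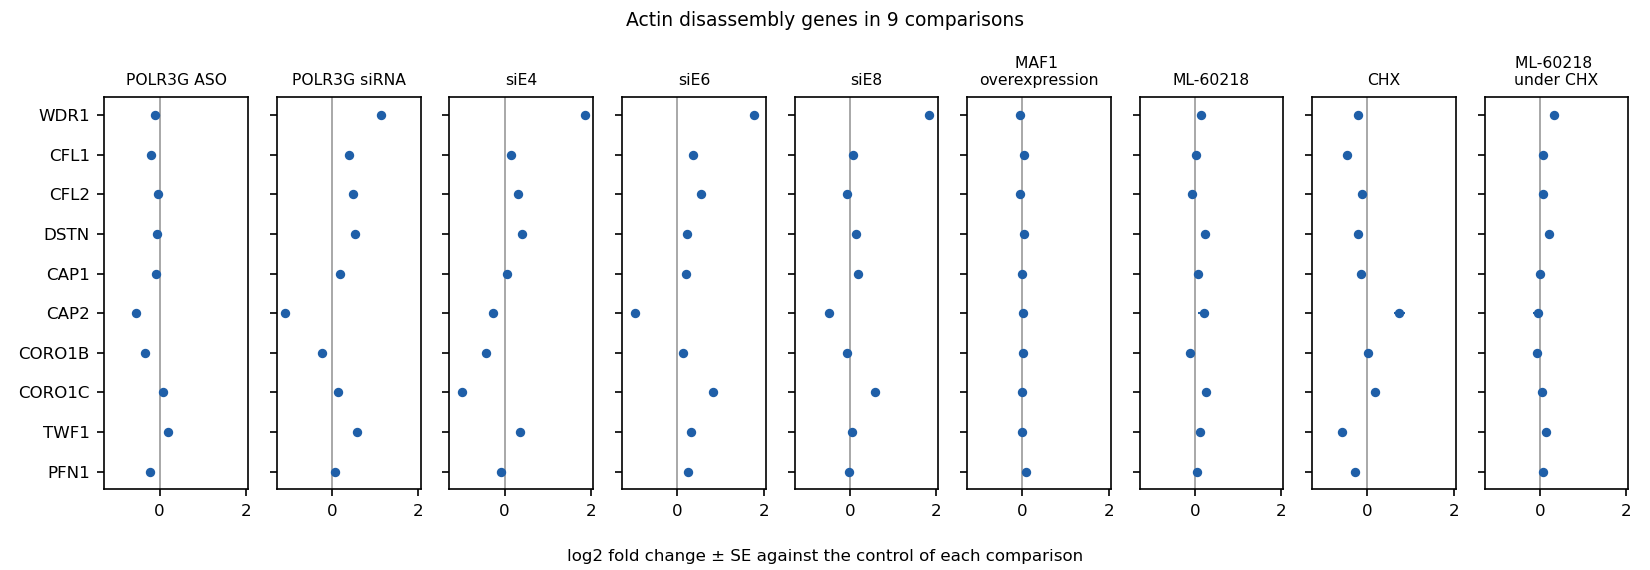
Log2 fold change of each gene against the control of its comparison (horizontal axis, points; bars are SE, mostly within the points) for 9 comparisons. WDR1 lies near 1.8 to 1.9 with siE4, siE6 and siE8 and at 1.14 with the POLR3G siRNA, while CORO1C lies on opposite sides of 0 with siE4 and with siE6 and siE8.

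Cofilins and destrin, the proteins that sever filaments, rose together with the POLR3G siRNA. CFL1 (ENSG00000172757, chromosome 11, 65823022 to 65862026, minus strand), the cofilin of most cells, went from 269.8, 269 and 266.5 CPM to 357, 349.6 and 347 CPM. CFL2 (ENSG00000165410, chromosome 14, 34706769 to 34714823, minus strand), known as the muscle cofilin, went from 143, 144 and 151 CPM to 206, 204 and 204 CPM. DSTN (ENSG00000125868, chromosome 20, 17569863 to 17609919, plus strand), which encodes destrin or ADF, went from 144 CPM in all 3 controls to 207, 209.9 and 205 CPM. No control library overlapped the siRNA group for any of them. The rises were log2 0.39 ± 0.02, 0.48 ± 0.02 and 0.53 ± 0.02, with a highest edgeR adjusted p of 1.41e-07. CFL1, DSTN and PFN1 have processed pseudogene copies that can share their reads, so their values are less certain than those of WDR1.

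With the POLR3G ASO the same genes gave smaller values in the other direction. CFL1 fell by 0.19 on the log2 scale (294.7 to 258 CPM, edgeR adjusted p = 3.68e-05). DSTN fell by 0.06 (160.5 to 154.5 CPM, adjusted p = 0.0437), a call lost with DESeq2 (0.254) and in 5 of 6 fits that left out a library, all but that without POLR3G ASO replicate 2, with a largest adjusted p of 0.115. CFL2 was at -0.04 ± 0.03 (adjusted p = 0.303) and called without POLR3G ASO replicate 2 (adjusted p = 0.0374). On reads of protein-coding transcripts alone, DSTN and CFL2 turned to 0.04 and 0.02, without passing. Raw TPM means of both were higher with the ASO (139 to 143 for DSTN and 98.7 to 107 for CFL2). The difference between ASO and siRNA was log2 -0.61 ± 0.03 for CFL1, -0.55 ± 0.04 for CFL2 and -0.61 ± 0.03 for DSTN.

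Each severing gene differed in level between at least some of the POLR3GL siRNAs. CFL2 was at 137, 144 and 150.5 CPM in the 25 nM control, 186, 174.5 and 173 CPM with siE4, 207.5, 216.5 and 204 CPM with siE6, and 139.6, 138 and 138 CPM with siE8. Only siE8 overlapped the control. CFL2 was thus higher with siE6 than with siE8 by log2 0.60 ± 0.04 (edgeR adjusted p = 5.98e-08) and with siE4 than with siE8 by 0.36 ± 0.04 (8.37e-06). CFL1 was at 414.6 CPM with siE6, 354 with siE4 and 337 with siE8 against 321 in the control, siE6 exceeding siE8 by log2 0.30 ± 0.06 (adjusted p = 4.33e-04). Its siE4 and siE8 levels did not differ past the threshold (adjusted p = 0.298). DSTN had another order, 231 CPM with siE4, 204 with siE6 and 193 with siE8 against 174 in the control. Its siE4 level exceeded those of siE8 (log2 0.26 ± 0.05, adjusted p = 6.33e-04) and siE6 (0.18 ± 0.05, 0.00781). The siE6 and siE8 levels of DSTN did not differ past the threshold (adjusted p = 0.188), but did on protein-coding transcripts alone (0.0401). Between siE4 and siE8 4 of the 10 genes were higher and 3 lower (30.5% and 32.4% of all genes), between siE6 and siE8 6 and 1 (32.1% and 32.1%), and between siE4 and siE6 2 and 6 (32.2% and 32.6%).

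The CAPs changed in opposite directions with the POLR3G siRNA and both were called lower with the ASO, CAP1 not under every alternative. CAP1 (ENSG00000131236, chromosome 1, 40040233 to 40072649, plus strand, overlapping the end of PPT1), the broadly expressed form, binds cofilin-bound monomers. It rose with the POLR3G siRNA by log2 0.18 ± 0.02 (213 to 242 CPM, edgeR adjusted p = 2.40e-05). With the ASO it fell by 0.09 (202 to 189.9 CPM, adjusted p = 0.00762). The latter call was lost with the length offset (0.139) and on protein-coding transcripts alone (0.24). On the raw TPM scale CAP1 was higher with the ASO (108 to 118 TPM, log2 0.127, and -0.0028 after the median gene was subtracted). Its siE4 level was below that of siE8 (log2 -0.14 ± 0.05, adjusted p = 0.0193), a call lost with the length offset (0.0517) and without siE4 replicate 2 or 3 or siE8 replicate 2 or 3 (0.0542 to 0.0739). CAP2 (ENSG00000112186, chromosome 6, 17393216 to 17557792, plus strand), known from heart and skeletal muscle, fell with both agents against POLR3G. With the siRNA CAP2 went from 45.8, 45.7 and 46.9 CPM to 21.3, 22.4 and 21.4 CPM, 2.13-fold (log2 -1.09 ± 0.03, adjusted p = 7.38e-09). With the ASO it went from 27.7, 29.9 and 27.4 CPM to 18.9, 20 and 19.8 CPM (log2 -0.53 ± 0.05, adjusted p = 1.99e-05). The siRNA fall was the larger by log2 0.53 ± 0.06 (adjusted p = 3.70e-06).

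In its control levels CAP2 ran opposite to WDR1, higher with the control siRNA than with the scramble ASO or eGFP. It stood at 23.2 to 24.9 TPM in the 6 control siRNA libraries and at 12.4 to 13.3 TPM with the scramble ASO, and its mean was 1.70-fold higher with the 200 nM control siRNA than with eGFP. With siE4, siE6 and siE8 CAP2 was at 38.6, 23.6 and 32.95 CPM against 46.3 in the control. The siE6 level was below that of siE8 (log2 -0.48 ± 0.05, edgeR adjusted p = 1.25e-06) and of siE4, which exceeded it by 0.71 ± 0.05 (2.39e-08). Whether the falls of CAP2 come from the control level was not tested.

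Of the 2 coronins, which bind filament sides and recruit cofilin, CORO1C had the largest difference of the 10 genes between siE4 and each of the other 2 POLR3GL siRNAs. CORO1C (ENSG00000110880, chromosome 12, 108645109 to 108731596, minus strand) was at 141.5, 149 and 155 CPM with the 25 nM control siRNA. It was at 75.5, 74.6 and 75.2 CPM with siE4, 269, 266.5 and 256 CPM with siE6, and 225.5, 227 and 218 CPM with siE8. Thus siE4 libraries lay below the control and those of siE6 and siE8 above it, with no overlap anywhere among the 4 groups. CORO1C was lower with siE4 than with siE8 by 2.97-fold (log2 -1.57 ± 0.04, edgeR adjusted p = 6.88e-12) and than with siE6 by 3.51-fold (-1.81 ± 0.04, 3.04e-12). The siE6 level exceeded that of siE8 by log2 0.24 ± 0.04 (adjusted p = 1.00e-04). POLR3GL, their shared target, was at 2.89, 3.36 and 2.61 CPM with siE4, siE6 and siE8, and was higher with siE6 than with siE8 (log2 0.36 ± 0.14, adjusted p = 0.0401). The siE4 level did not differ past the threshold from either (adjusted p = 0.409 and 0.193).

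With the POLR3G siRNA CORO1C rose by log2 0.15 ± 0.02 (137 to 152 CPM, edgeR adjusted p = 1.67e-04), a call lost with the length offset (0.188). With the ASO it was at 0.07 ± 0.03 (adjusted p = 0.0842), and was called higher with DESeq2 (0.0391), with the length offset (0.0101) and on protein-coding transcripts alone (0.0156). CORO1B (ENSG00000172725, chromosome 11, 67435510 to 67443821, minus strand) fell with both, from 25.0 to 21.4 CPM with the siRNA (log2 -0.22 ± 0.04, adjusted p = 3.90e-04) and from 26.2 to 20.9 CPM with the ASO (-0.33 ± 0.06, 9.02e-04). The difference between these 2 falls did not pass (adjusted p = 0.1; 0.0367 without POLR3G ASO replicate 1). CORO1B was at 23.5 CPM with siE4, 34.8 with siE6, 30.4 with siE8 and 31.9 in the control, so the siE4 level was lowest for this coronin as well. Its log2 difference was -0.37 ± 0.07 from siE8 (adjusted p = 3.63e-04) and -0.57 ± 0.07 from siE6 (6.91e-06). The step from siE8 to siE6 (0.20 ± 0.07, adjusted p = 0.0201) was lost with the length offset (0.133), on protein-coding transcripts alone (0.0969) and without siE6 replicate 2 or siE8 replicate 1 or 3 (0.0561 to 0.0952).

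**Figure D3:**
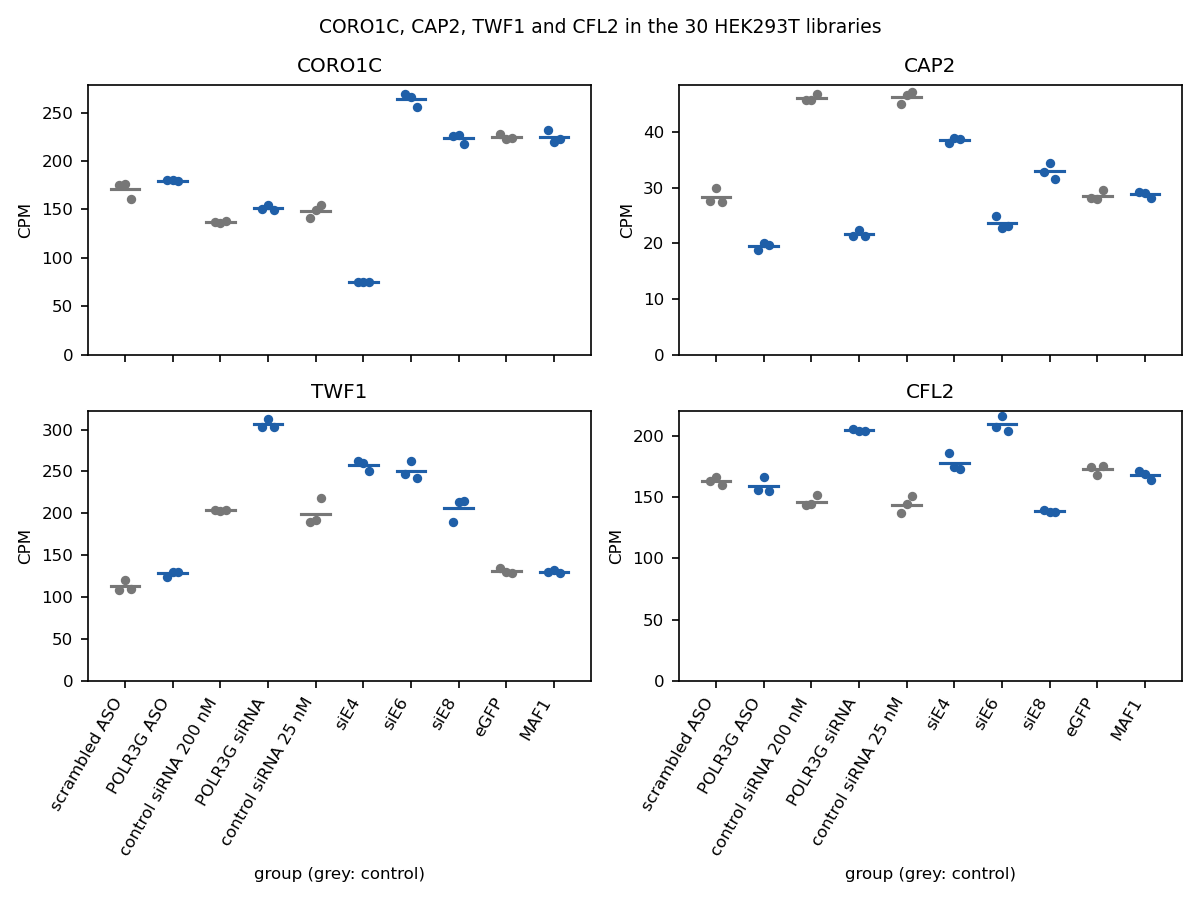
CORO1C, CAP2, TWF1 and CFL2 in CPM (vertical axes, from 0) in the 30 HEK293T libraries by group; points are libraries, bars are group means and grey marks controls. CORO1C is near 75 CPM in the 3 siE4 libraries and above 217 in those of siE6 and siE8, and CAP2 and TWF1 stand higher in the control siRNA groups than in the scramble ASO and eGFP groups.

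TWF1 (ENSG00000151239, chromosome 12, 43793723 to 43806375, minus strand), which encodes twinfilin 1, had the largest change after WDR1 and CAP2 under the POLR3G siRNA. It rose from 204, 203 and 204.5 CPM to 304, 312 and 303 CPM, 1.5-fold (log2 0.59 ± 0.02, edgeR adjusted p = 1.00e-08). With the ASO TWF1 rose as well, the sole rise among the 10 genes, from 108, 120.1 and 110.0 CPM to 124, 130.1 and 130.5 CPM (log2 0.19 ± 0.04, adjusted p = 0.00285), though less (difference -0.43 ± 0.05, 3.13e-06). TWF1 was higher with siE4 and siE6 than with siE8, by log2 0.32 ± 0.06 (adjusted p = 4.38e-04) and 0.28 ± 0.06 (0.00114), at 258, 251 and 206 CPM. In TPM all 6 groups that received an siRNA, controls included, had a higher mean TWF1 level than the 4 ASO and overexpression groups. The mean of the 200 nM control siRNA was 2.12-fold that of the scramble ASO and 1.65-fold that of eGFP.

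PFN1 (ENSG00000108518, chromosome 17, 4945652 to 4949061, minus strand), which encodes profilin 1, moved least with the POLR3G siRNA. It was at 301.5, 287 and 289 CPM in the control and 304, 305 and 307.5 CPM with the siRNA (log2 0.06 ± 0.02, edgeR adjusted p = 0.0282). That call was lost without control siRNA replicate 2 (0.118) or 3 (0.0962), on protein-coding transcripts alone (0.111) and with all HEK293T libraries in the fit (0.31). With the ASO PFN1 fell by 0.23 on the log2 scale, from 270.2 to 231 CPM (adjusted p = 3.76e-05). Its level was higher with siE6 (397 CPM) than with siE4 (316 CPM, siE4 minus siE6 at log2 -0.33 ± 0.06, adjusted p = 4.12e-04) or siE8 (332.5 CPM, siE6 minus siE8 at 0.26 ± 0.06, 0.00291).

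In THP-1, ML-60218 raised WDR1, DSTN, CORO1C and TWF1 and lowered none of the 10 genes, with 8.48% of 15327 genes called higher and 7.05% lower (15.5% in all). WDR1 went from 404, 411 and 379 CPM with DMSO to 433.5, 455.5 and 430.2 CPM with ML-60218. The groups did not overlap, and the rise was 1.11-fold (log2 0.14 ± 0.04, edgeR adjusted p = 0.0181). Without DMSO replicate 3 or ML-60218 replicate 2 the call was lost (adjusted p = 0.0582 and 0.0875), and without ML-60218 replicate 2 2 of the 10 genes were called. DSTN rose by log2 0.23 ± 0.04 (86.6, 86.0 and 82.4 to 100.1, 104 and 94.98 CPM, adjusted p = 0.00188). CORO1C rose by 0.26 ± 0.03 (227, 227 and 217 to 266, 279 and 258 CPM, adjusted p = 3.18e-04), the largest change of the 10 genes with this inhibitor. TWF1 rose by 0.11 ± 0.03 (49.8 to 53.9 CPM, adjusted p = 0.0247). The TWF1 call was lost in 5 of 6 fits without a library, all but that without DMSO replicate 2, and in 3 of 6 other alternatives, with a largest adjusted p of 0.456. CORO1B, at -0.10 ± 0.05 (adjusted p = 0.16), was called lower without DMSO replicate 3 (0.0498).

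Under CHX, ML-60218 again raised WDR1, DSTN and TWF1 and lowered none of the 10 genes, against 8.75% of genes called higher and 7.75% lower (16.5% in all). WDR1 went from 339.6, 332 and 348 CPM with CHX alone to 410.4, 439 and 421 CPM with both agents (log2 0.32 ± 0.04, edgeR adjusted p = 1.39e-04). DSTN rose by log2 0.22 ± 0.04 (73.2 to 85.5 CPM, adjusted p = 0.00259) and TWF1 by 0.15 ± 0.03 (33.3 to 36.9 CPM, adjusted p = 0.00647, lost with the length offset at 0.32). CFL1 and PFN1 did not pass (adjusted p = 0.0767 and 0.0742), but did with DESeq2 (0.0135 and 0.0186), with DESeq2 size factors (0.0474 and 0.0471) and without CHX replicate 1 (0.0412 and 0.00859). CFL1 was also called on protein-coding transcripts alone (0.0426) and without CHX + ML-60218 replicate 1 (0.0318). CORO1C was at 0.05 ± 0.03 (adjusted p = 0.327), 261 against 252 CPM. The effects of ML-60218 with and without CHX were compared by their interaction, where 2.86% of genes were called higher and 3.7% lower (6.56% in all). It was log2 0.17 ± 0.05 for WDR1 (adjusted p = 0.0735), which passed with DESeq2 (0.0138) and without DMSO replicate 3 (0.0296). For CORO1C it was -0.20 ± 0.05 (adjusted p = 0.0251), the sole call of the 10 genes, lost with the length offset (0.0561) and without ML-60218 replicate 1 or 2, CHX replicate 1 or 3 or CHX + ML-60218 replicate 2 (0.0514 to 0.0624).

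CHX alone lowered 6 of the 10 genes and raised 2, where 32.5% of genes were called lower and 33.5% higher (66% in all). TWF1 fell most, by 0.58 on the log2 scale (50.2, 50.5 and 48.8 to 33.9, 32.6 and 33.4 CPM, edgeR adjusted p = 2.89e-09). CFL1 followed with a fall of 0.46 (524 to 381 CPM, adjusted p = 2.40e-09), PFN1 with 0.29, WDR1 with 0.23 (adjusted p = 1.23e-04), DSTN with 0.21 and CAP1 with 0.14. CAP2 rose by 0.74 ± 0.12, from a low 2.25 to 3.78 CPM (adjusted p = 1.42e-04), and CORO1C by 0.17 ± 0.03 (224 to 252 CPM, adjusted p = 6.07e-04). WDR1 was 164 ± 5.80 TPM with DMSO and 186 ± 6.63 TPM with CHX (SD, n = 3), so on the raw TPM scale its direction, like those of DSTN, CAP1 and PFN1, turned. Relative to the median gene, whose TPM ratio moved by log2 0.33, the WDR1 ratio was -0.15. CFL2 was at -0.12 ± 0.06 (adjusted p = 0.0825) and passed with the length offset (0.0303).

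The 2 lines differed in the levels of several of these genes, though all 10 were measured in both. In HEK293T the median TPM of 30 libraries ran from PFN1 (757) and CFL1 (463) through DSTN (167), CAP1 (136), CFL2 (112), TWF1 (107), CORO1C (64.9), WDR1 (52.5) and CORO1B (31.8) to CAP2 (14.2). From DSTN down to CAP2 the ranges over libraries of neighbours in this order overlapped, while PFN1, at 584 to 937 TPM, lay above CFL1 at 376 to 561, and CFL1 above DSTN. In the 12 THP-1 libraries CAP1 led at 6345 to 7517 TPM (median 6907), the rank of 11 among all genes and 50.8 times its HEK293T median. Its reads numbered 424096 to 521553 per THP-1 library and fell on the same transcripts as in HEK293T, with a median of 63.2% on CAP1-206 and 23.0% on CAP1-202 (58.9% and 25.0% in HEK293T). WDR1 was 3.5-fold higher in THP-1 at 158 to 232 TPM. CFL2 (9.42-fold), CAP2 (9.69-fold), TWF1 (4.79-fold) and DSTN (2.04-fold) had the higher median in HEK293T. The lines were not tested against each other, since treatment and experiment differ with the line.

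**Figure D4:**
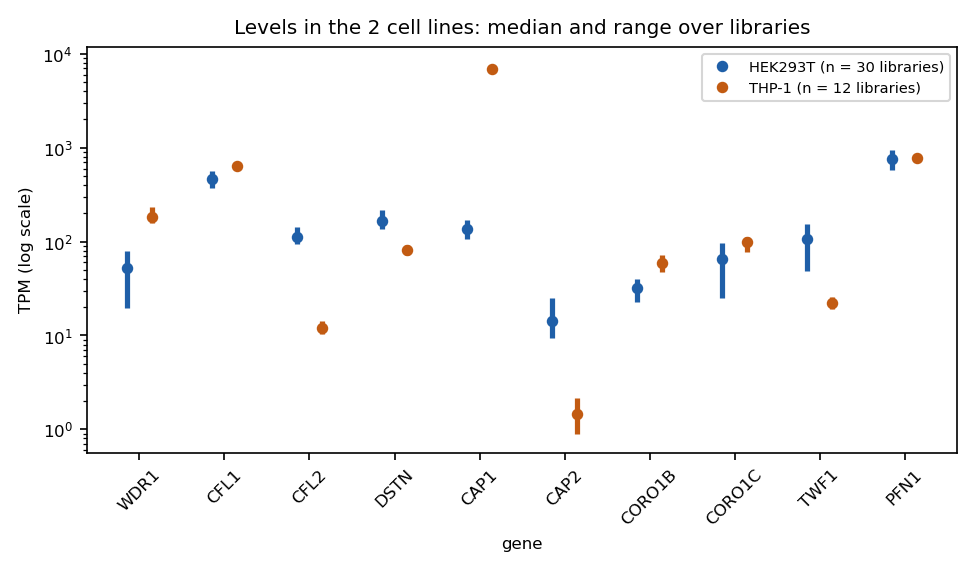
Median (points) and range (bars) of TPM on a log scale (vertical axis) for each gene (horizontal axis) over the 30 HEK293T and 12 THP-1 libraries. CAP1 is at a median of 6907 TPM in THP-1 and 136 in HEK293T, and CFL2, CAP2 and TWF1 are higher in HEK293T without overlap of the ranges.

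WDR1 reads came almost wholly from 1 transcript, WDR1-204, which took 92.5 to 99.7% of them in HEK293T and 96.3 to 99.4% in THP-1. CFL2 showed a different transcript makeup in the control siRNA libraries. CFL2-201 took 38.8 ± 2.21% and CFL2-202 37.7 ± 2.04% of CFL2 reads with the 200 nM control siRNA, and 41.2 ± 3.07% and 35.8 ± 2.01% with the 25 nM control. With the scramble ASO the shares were 32.7 ± 0.907% and 48.8 ± 1.18%, and with eGFP 31.2 ± 2.37% and 49.99 ± 1.92% (SD, n = 3). The CFL2-202 share was 33.5 to 39.2% over the 6 control siRNA libraries, below its range in each other HEK293T group. Shares between transcripts of a gene are estimates and were not tested.

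Which genes followed WDR1 was measured by Pearson's r over the 30 HEK293T libraries, on log2 CPM less the mean of each experiment's own control group, for 11313 genes. The 5 most like it were HDGFL2 (r = 0.989), TAPT1 (0.987), STMN1 (0.986), DNAJC3 (0.984) and MCFD2 (0.983). STMN1 encodes stathmin, which takes tubulin from microtubules, and DNAJC3 and MCFD2 encode proteins of the secretory pathway. The libraries share control groups and treatments, so the 30 points are not independent and r describes them without a test. All 5 genes had their lowest mean TPM in the 2 control siRNA groups, a pattern that their choice by likeness to WDR1 over the same libraries favours. MCFD2 was at 37.0 ± 0.83 and 34.7 ± 1.56 TPM there, against 63.1 ± 1.32 with the scramble ASO and 63.7 ± 1.74 with eGFP. STMN1 was at 211 ± 3.74 and 243 ± 17.5 TPM there, 341 ± 5.98 with the scramble ASO and 497 ± 17.7 with siE8. Of the other 9 actin genes the closest were CAP1 (r = 0.805, rank 530 of 11313), DSTN (0.754, rank 792) and CFL1 (0.671, rank 1220). The farthest was CAP2 (-0.63). The 30 libraries include those of siE4, siE6 and siE8, whose WDR1 values chose the gene.

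**Figure D5:**
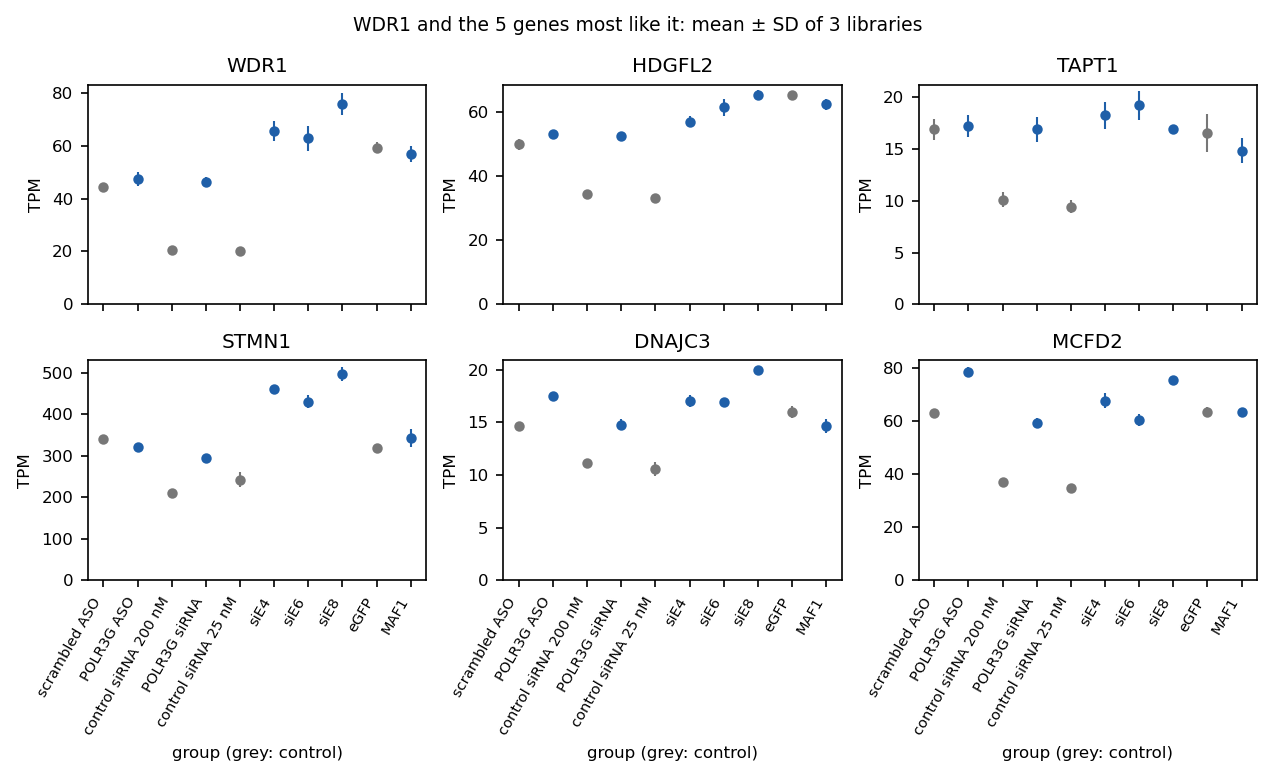
Mean ± SD of TPM over 3 libraries (vertical axes, from 0) for WDR1 and the 5 genes most like it in the 10 HEK293T groups (horizontal axes; grey marks controls). In each panel the 2 control siRNA groups are the lowest, at 20.1 and 20.7 TPM for WDR1.

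Other genes of actin dynamics were described from 9 lists of 129 genes, 126 of them matched, as counts and medians. With the POLR3G siRNA 43 of 119 tested rose (36.1%) and 57 fell (47.9%), with a median log2 change of -0.07 (-0.02 for all genes), against 36.8% and 38.1% of all genes. The actins split: ACTB fell from 1245 to 511 CPM (log2 -1.28 ± 0.02, edgeR adjusted p = 8.42e-11) while ACTG1 rose from 1508 to 2027 CPM (0.43 ± 0.02, 1.88e-08). Both have many pseudogene copies, which makes their values uncertain. LIMK1, the kinase that switches cofilin off, fell by 1.83 on the log2 scale (30.8 to 8.64 CPM), and SSH2, a phosphatase that switches it on, fell by 1.31 (60.5 to 24.3 CPM). Of 13 cofilin kinases and phosphatases 5 rose and 6 fell with this siRNA, to be read beside those shares. CAPZA1, which caps filament ends, rose 1.03 ± 0.02 (239 to 488 CPM), and PLS3, a filament bundler, 1.56 ± 0.02 (806 to 2374 CPM). The nucleators and elongators had 9 rises and 19 falls among 29 tested, COBL falling by 1.84 (38.2 to 10.6 CPM).

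With the POLR3G ASO 22 of 123 genes of the lists rose (17.9%) and 81 fell (65.9%), with a median of -0.20, against 34.4% and 34.1% of all genes. ACTG1 fell by 0.40 (1175 to 892 CPM) and ACTB by 0.34 (1195 to 943 CPM). In each of the 9 lists but the actins, more genes fell than rose, for example 22 against 2 of the 29 nucleators and elongators. TAGLN, the transgelin gene and a known SRF target, went the other way, rising from 4.64 to 15.9 CPM (log2 1.78 ± 0.08, edgeR adjusted p = 3.24e-07). MAF1 overexpression gave 0 edgeR calls in 119 genes.

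Between the POLR3GL siRNAs 42 of 120 genes of the lists were higher and 43 lower for siE4 against siE8 (35% and 35.8%, with 30.5% and 32.4% of all genes). The counts were 45 and 38 for siE6 against siE8 (37.5% and 31.7%, with 32.1% and 32.1% of all genes), and 40 and 46 for siE4 against siE6 (33.3% and 38.3%, with 32.2% and 32.6%). These shares lay near those of all genes. VASP was at 31.0 ± 0.772 CPM with siE4, 5.16 ± 0.441 with siE6 and 29.9 ± 1.04 with siE8 (SD, n = 3), lower with siE6 than with siE8 by 5.8-fold (log2 -2.54 ± 0.08, edgeR adjusted p = 3.71e-11). SRF itself was highest with siE6 of the 3, at 81.5 CPM against 56.8 with siE4 and 44.5 with siE8. ACTG1 was at 1618 CPM with siE4, 1707 with siE6 and 1071 with siE8.

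With ML-60218 32 of 115 genes of the lists rose (27.8%) and 4 fell (3.48%), with a median of 0.06 (-0.01 for all genes), against 8.48% and 7.05% of all genes. TPM4, a tropomyosin gene, rose from 273 to 404 CPM (log2 0.56 ± 0.05, edgeR adjusted p = 2.84e-05), and TAGLN2, a transgelin gene, from 458 to 574 CPM (0.33 ± 0.03). MTSS1, whose protein binds membranes and actin monomers, rose from 10.1 to 21.0 CPM (1.05 ± 0.12, adjusted p = 1.21e-04), and VASP, an elongation factor of filaments, by 0.40 ± 0.04. ACTG1 rose by 0.13 ± 0.04 (adjusted p = 0.0294). That call was lost without the filter (0.0937) and without DMSO replicate 3 (0.0815) or ML-60218 replicate 1 (0.0724) or 2 (0.128). Under CHX 18 genes rose (15.7%) and 11 fell (9.57%) with ML-60218, against 8.75% and 7.75% of all genes, TPM4 again among the rises (217 to 368 CPM, 0.76 ± 0.05, adjusted p = 4.29e-06). CHX alone gave 30 rises and 54 falls (26.1% and 47%, with 33.5% and 32.5% of all genes), among them falls of SRF (log2 -1.35 ± 0.04), ACTG1 (-0.69 ± 0.04) and ACTB (-0.59 ± 0.03).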

How the data were processed

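Per the labels' protocols, stranded mRNA libraries were made from total RNA and sequenced from both ends. Per the submitters' processing notes, the tools named are bcl2fastq 2.20, Trim Galore, Salmon and DESeq2, and the build is hg38. The role of each, the other versions and the transcript annotation are not stated there. For 194142 transcripts in 42 libraries the authors deposited, per the file headers, a TPM value and an estimated count that can be fractional.

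Transcripts were matched by identifier to GENCODE 29 (GRCh38), which named 158359 of them (81.6%). Unmatched transcripts took 8.06 to 9.54% of the 32705684 to 52568088 reads of a library and entered neither library sizes nor tests. Estimated counts and TPM were summed per gene, and estimated counts were rounded for tests. In R 4.3.3, edgeR 4.0.16 was run on each experiment separately (filterByExpr, TMM, quasi-likelihood F-test), and p-values were adjusted by Benjamini-Hochberg across the genes tested. For the contrast of ASO with siRNA, the libraries of both experiments entered 1 model. Likeness to WDR1 used log2 CPM with a prior count of 2. Python 3.11.15 with pandas 2.3.3, numpy 2.4.6 and matplotlib 3.10.9 made tables and figures. The fit was tested on simulated counts with known changes.

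The 10 genes, the lists and the tests were chosen with earlier results of these data known. Named beyond the 10 genes are the 5 most like WDR1 and, for each list and comparison, up to 2 called genes with the smallest adjusted p, a mean of at least 5 CPM and no overlap between groups. Alternatives were DESeq2 1.42.0, its size factors, no filter, the replicate number as a block, an offset for effective length, protein-coding transcripts alone, all HEK293T libraries in 1 fit and each library left out. Deviations of same-numbered libraries from their group means correlated above 0.1 in all 3 pairs for MAF1 and eGFP (0.107 to 0.15) and for siE6 and siE8 (0.173 to 0.342). The numbers may thus pair these groups, which the labels do not say. DMSO with CHX (0.0994 to 0.269) and ML-60218 with CHX + ML-60218 (0.0925 to 0.254) came close to this. Differently numbered libraries of other groups also passed 0.1, as siE4 replicate 2 with siE8 replicate 3 (0.287). The main tests leave pairing out. No replicates were near-identical. Salmon splits reads between near-identical transcripts by estimation.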

Additional observations from a re-analysis of the deposited data

Results flagged for a closer look

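The effect of the POLR3G ASO and that of the POLR3G siRNA differed, by the edgeR test of the difference, for 9 of the 10 genes (1 higher, 8 lower with the ASO), where 33.8% and 33.0% of all genes differed. The differences, ASO minus siRNA on the log2 scale, were -1.28 for WDR1, -0.609 for CFL1, -0.551 for CFL2, -0.611 for DSTN, -0.3 for CAP1, 0.527 for CAP2, -0.432 for TWF1 and -0.32 for PFN1. CORO1C differed by -0.102 (adjusted p = 0.0493), which turned to 0.0666 with the length offset, and its call was lost with DESeq2 (0.119), with its size factors (0.11), on protein-coding transcripts alone (0.519) and in 8 of 12 fits without a library (0.0505 to 0.1), all but those without scramble ASO replicate 3, POLR3G ASO replicate 2, control siRNA replicate 3 or POLR3G siRNA replicate 3. The median of all genes for ASO minus siRNA was 0.0769 on the log2 scale. Agent, control and experiment differ together in this contrast and cannot be told apart. In THP-1 the effect of ML-60218 differed with CHX for CORO1C, by an interaction of -0.204 on the log2 scale (edgeR adjusted p = 0.0251). That call was lost with the length offset (0.0561) and in 5 fits without a library (0.0514 to 0.0624), those without ML-60218 replicate 1 or 2, CHX replicate 1 or 3 or CHX + ML-60218 replicate 2.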

How the results depend on the processing

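The largest values were stable: under every alternative run, WDR1 stayed between 1.12 and 1.27 (log2) with the POLR3G siRNA, between -1.38 and -1.19 for ASO minus siRNA and between 0.299 and 0.344 for ML-60218 under CHX, and was called each time. With an offset for effective length WDR1 was at 1.91 (siE4), 1.83 (siE6) and 1.94 (siE8), without a test. The WDR1 call with the POLR3G ASO was lost with that offset (-0.0827, adjusted p = 0.195) and on protein-coding transcripts alone (-0.0393, 0.279). Calls among the 10 genes were 5 for ML-60218 under CHX with DESeq2 and with its size factors, and for the interaction 2 with DESeq2 and 0 with the length offset; the WDR1 interaction was 0.18 with DESeq2 (adjusted p = 0.0138). The cause was not tested in these cases.

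With a library left out, WDR1 ranged from 0.111 to 0.17 with ML-60218 and from 0.143 to 0.206 for the interaction. The calls ranged from 2 to 4 with ML-60218, from 3 to 5 with ML-60218 under CHX and from 0 to 2 for the interaction. Values near 0, none of which passed in the fit as reported or when reversed, changed sign: WDR1 between siE4 and siE8 (-0.00358 to 0.0343), CAP1 between siE6 and siE8 (-0.0221 to 0.0461), CORO1B with CHX (-0.0335 to 0.0426), CAP1 and CAP2 with ML-60218 under CHX (-0.00599 to 0.0331 and -0.126 to 0.0442) and the interactions of DSTN (-0.0478 to 0.0247) and CORO1B (-6.24e-05 to 0.0761). With MAF1 overexpression this held for CAP1 (-0.0291 to 0.00693), CAP2 (-0.000407 to 0.0413), CORO1B (-0.0413 to 0.0355), CORO1C (-0.0243 to 0.0176) and TWF1 (-0.0178 to 0.0117).

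Other reversals came with the length offset: WDR1 between siE4 and siE8 (-0.0329), CAP1 between siE6 and siE8 (-0.0253), CORO1B with MAF1 (-0.0209) and with CHX (-0.0495), and CORO1C for ASO minus siRNA (0.0666). On protein-coding transcripts alone CFL2 (0.0175) and DSTN (0.0376) with the ASO, CORO1B (-0.022), CORO1C (-0.0134) and TWF1 (0.018) with MAF1, CORO1B with CHX (-0.0436) and in the interaction (-0.00994) and MICAL1 with CHX (0.153, adjusted p = 9.52e-04) reversed. CORO1C with MAF1 was at -0.000629 with DESeq2, -0.000655 with its size factors and -0.00377 with all HEK293T libraries. Without the filter the DSTN interaction was 0.00138.

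With the replicate number as a block, CORO1C with MAF1 turned to -0.000123 and DSTN with the ASO lost its call (-0.0554, adjusted p = 0.0671); no other call among the 10 genes changed sign or was lost, and 8 rather than 7 were called with siE4. Same-numbered libraries may be paired for MAF1 with eGFP and for siE6 with siE8. For siE6 against siE8, 7 of the 10 genes were called with and without the block. In the other groups not all pairs exceeded 0.1: 2 of 3 pairs did for the ASO, 0 of 3 for the POLR3G siRNA, 6 of 18 among all POLR3GL groups (3 of them siE6 with siE8) and 5 of 18 in THP-1. Same-numbered THP-1 libraries of DMSO and CHX were at 0.248, 0.269 and 0.0994. Those of ML-60218 and CHX + ML-60218 were at 0.134, 0.254 and 0.0925. The numbers may pair these groups as well, which the labels do not say. Counts over all genes moved by over 1.5 times for MAF1 overexpression (6 to 32 with DESeq2, 11 without the filter, 2 and 3 without MAF1 replicate 2 or 3), for ML-60218 (2380 to 1520 without ML-60218 replicate 2), for ML-60218 under CHX (2529 to 1470 with the length offset and 1644 without CHX + ML-60218 replicate 3) and for the interaction (1006 to 458 with the length offset and 620 to 648 without CHX replicate 1 or 3 or ML-60218 replicate 2). CAP2 in THP-1 rests on 69 to 173 reads per library, the fewest of the 10 genes.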

Other observations

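Transcripts annotated for nonsense-mediated decay were measured for CFL2 and DSTN in both lines. For CFL2 they held 14.7 to 21.4% of its reads in HEK293T libraries and 22.1 to 28.8% in THP-1 libraries, so the ranges of the lines did not overlap. For DSTN they held 8.65 to 13.6% and 10.0 to 12.7%. Of WDR1 reads at least 98.1% fell on protein-coding transcripts in every HEK293T library and at least 98.95% in every THP-1 library.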
